A study of Mus musculus with 24 samples.

Results

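A group of 7 regulatory genes of the fast-fibre programme was followed through chromatin accessibility of mouse hindlimb muscle: Six2, Six4 and Six5, Eya1, Eya3 and Eya4, and Tbx15. They are 7 of the 33415 mouse genes whose loci held enough accessible regions to be counted. The peaks of 24 ATAC-seq libraries were merged into regions, those called by 2 libraries or more were retained, and the ones overlapping a member's gene body or the 50 kb on each side were taken, which gave 309 regions of 459616 in all. ATAC-seq cuts open DNA with the Tn5 transposase, and a peak marks where such cuts pile up.

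The study sampled 4 hindlimb muscles in male mice of the inbred strain FVB/NJ, as adults and at E18.5, shortly before birth. The labels call soleus and vastus intermedius slow-biased, that is rich in slow oxidative fibres; their fast-biased counterparts are gastrocnemius and vastus lateralis. Each of the 8 groups had 3 libraries: 1 from each of 3 adult animals, or 1 from each of 3 litters whose male embryos were pooled. No allele or treatment separated the groups. The labels give the adult age as P56 in one place and as a range of months in another, and these were not reconciled. Nuclei came from undigested muscle, so every cell type of the tissue could contribute.

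Six2, Six4 and Six5 belong to the sine oculis family of homeodomain transcription factors, which bind DNA directly. Eya1, Eya3 and Eya4 belong to the eyes absent family, which does not bind DNA; its members join sine oculis proteins as co-activators and also carry a phosphatase domain. In skeletal muscle, complexes of the 2 families act on myogenic genes and on fast, glycolytic fibre genes, and Tbx15, a T-box transcription factor, is known from glycolytic fast fibres.

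The deposited peak lists held 115333 to 228137 peaks, with adult lists averaging 166593 ± 31671 and E18.5 lists 167856 ± 34248 (SD, n = 12 each). Each list gave positions on the mm10 build only, so a value below is a yes or no per library, or a number of called regions, and never an amount of accessibility. The absence of a call is no sign that a site is closed. In bulk tissue, fewer cells with an open site and a less open site in each cell cannot be told apart. Muscle fibre markers (Acta1, Ckm, Ttn, Actn2, Mb and Des) were called in all 24 libraries. Their summed called regions, counted in the gene bodies and 1 kb on each side, were 71 to 112 per adult library and 20 to 54 per E18.5 library, ranges that did not overlap. The fibroblast list gave 10 to 17 in the adult and 13 to 27 at E18.5, the satellite cell list 12 to 25 and 16 to 27, and the endothelial list 26 to 33 and 17 to 40. Of the tendon markers 1 of 3, and of the erythroid markers 1 of 2, had no call in any library.

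At a gene end of each sine oculis and eyes absent member lay a region called in all 24 libraries. Of the 309 regions, 15 were called in every muscle, animal and litter (4.85%, near the 3.98% of all kept regions), and 11 of them lay within 1 kb of a gene end. Each of these 6 members had such a region at one of its own ends: Six2 at +25.5 kb, Six4 at +12.6 kb, Six5 at -0.2 kb, Eya1 at +141.0 kb, Eya3 at +0.2 kb and Eya4 at +246.7 kb. These positions, and those used for every region below, run from the lower-coordinate end of the gene to the midpoint of the region. For Six2, Six4, Six5, Eya3 and Eya4 that end is the one with the RefSeq start sites. For Tbx15 the region called in all 24 libraries lay inside the gene, at +13.7 kb (chr3:99252666-99255456), and Eya4 had a second one inside it at +74.5 kb (chr10:23175766-23179209). The other 7 lay in the flanks, 1 beside Six4, 4 beside Six5 and 2 beside Eya3. Among all 18301 regions called in 24 libraries, the share within 1 kb of a gene end was not counted. The 11 of 15 are therefore not shown to be particular to these genes.

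Promoter entries of RefSeq (GRCm38.p6, the assembly of mm10) matched 5 of the 7 members, with 7 start sites in all: Six2, Six5 and Eya3 have 1 each and Six4 and Eya4 have 2. The bases just before 3 of these genes are shown, where the promoter window held a long enough stretch before the first annotated base of the gene. The 3 stretches fall in regions called in all 24 libraries, and capitals mark CG dinucleotides. The last line is a 30-base site of the Six4 promoter, on the Six4 strand; its capitals, which begin 97 bases before one of the Six4 start sites, mark the core of the site that sine oculis proteins themselves bind, TCAGGTT, read on the opposite strand.
Six2, bases before the gene (chr17:85688255-85688504, minus strand): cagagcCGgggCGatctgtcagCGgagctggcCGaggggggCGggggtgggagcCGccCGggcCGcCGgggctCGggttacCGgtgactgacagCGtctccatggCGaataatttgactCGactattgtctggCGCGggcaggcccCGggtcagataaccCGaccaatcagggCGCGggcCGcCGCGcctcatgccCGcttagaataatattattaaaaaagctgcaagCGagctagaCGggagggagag
Six5, bases before the gene (chr7:19094294-19094543, plus strand): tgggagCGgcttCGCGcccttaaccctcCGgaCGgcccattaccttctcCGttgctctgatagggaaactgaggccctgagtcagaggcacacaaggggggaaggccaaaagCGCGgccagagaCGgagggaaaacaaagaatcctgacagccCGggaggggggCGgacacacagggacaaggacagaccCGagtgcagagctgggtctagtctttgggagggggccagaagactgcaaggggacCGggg
Eya3, bases before the gene (chr4:132638796-132639024, plus strand): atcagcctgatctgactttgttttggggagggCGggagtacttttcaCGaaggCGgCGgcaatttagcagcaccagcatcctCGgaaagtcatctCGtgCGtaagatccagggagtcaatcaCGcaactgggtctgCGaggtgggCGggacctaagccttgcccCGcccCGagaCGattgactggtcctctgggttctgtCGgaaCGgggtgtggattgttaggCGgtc
Six4, sine oculis core site (chr12:73113324-73113353, minus strand): ggcctgggggaAACCTGAtcggccagatcc
CpG dinucleotides numbered 37 per 300 bases in the Six2 promoter, 36 and 28 in those of Eya4, 25 in Eya3, 17 in Six5 and 16 and 15 in Six4, against a median of 7 over 32851 mouse promoters. The sine oculis core TCAGGTT, searched on both strands, occurred in 1 of the 7 member promoters and in 4.07% of all promoters. The T-box core GGTGTGA (3.98% of all promoters) and the E-box CAGCTG (16.3%) occurred in none of the 7. A match is a string of letters and not a shown binding site, and no match says only that the letters are not in the window. The 300-base promoter windows were overlapped by a peak in 12 adult and 12 E18.5 libraries at each start site of Six2, Six4, Eya3 and Eya4, and in 11 adult and 12 E18.5 libraries at Six5.

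At 6 of these 15 regions peaks covered more bases in every litter than in every adult. All peaks of a library inside a region were summed, so more covered bases can mean wider peaks or more of them. At the Six5 start (chr7:19092275-19096368), which also holds an end of the neighbouring Dmpk, peaks covered 2290, 1927 and 2262 bp in the 3 adults and 3800, 3354 and 2970 bp in the 3 litters (means over 4 muscles). The groups did not overlap. At the Six2 start (chr17:85687015-85689531) the adults had 1147, 1282 and 1177 bp and the litters 1691, 1600 and 1382 bp, again without overlap. In all, 6 of the 15 regions (40%) had more covered bases in every litter than in every adult and 0 the reverse. Of all 18301 regions called in 24 libraries, 36.8% and 5.2% did. The 6 were the Six2 and Six5 starts, 2 other regions beside Six5 and 2 beside Eya3. The Six4, Eya1, Eya3 and Eya4 regions at the genes' own ends and the Tbx15 region overlapped between stages. The share of 40% was thus near that of the whole series.

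**Figure D1:**
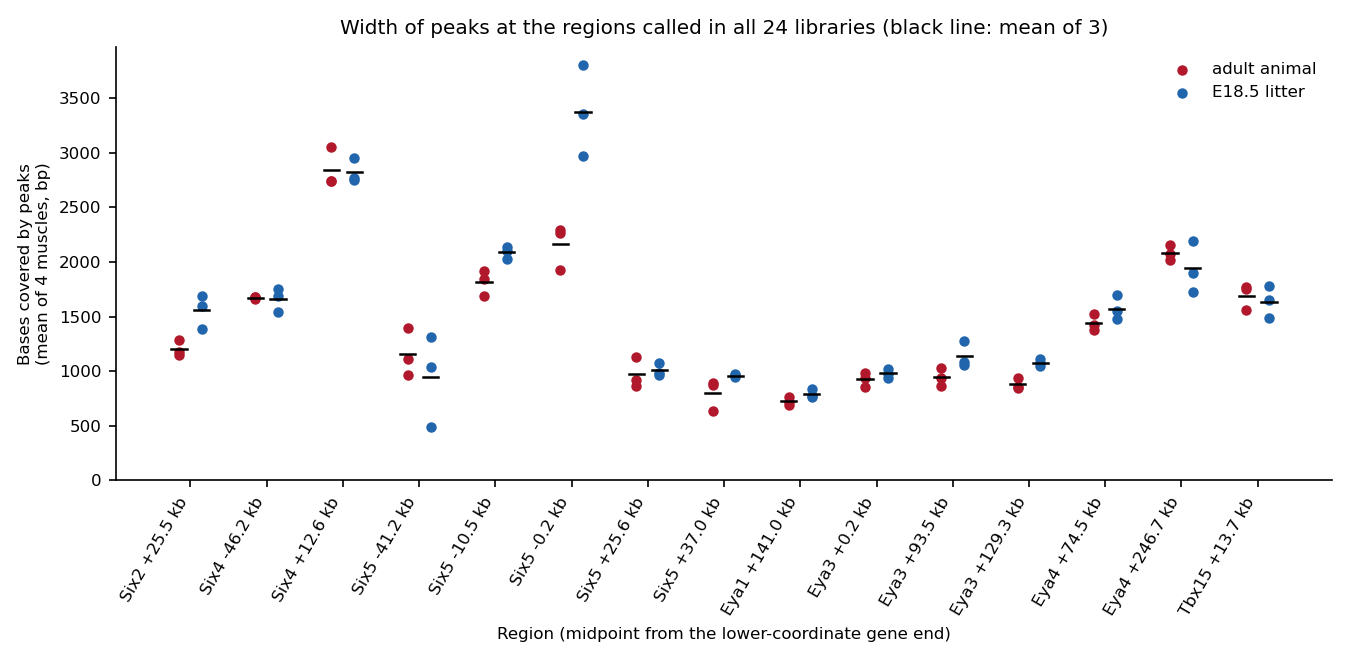
Bases covered by peaks (y axis, bp, mean over the 4 muscles) at the 15 regions called in all 24 libraries (x axis, gene and midpoint position in kb), with 1 point for each of 3 adult animals and 3 E18.5 litters and black lines for their means. The Six5 region at -0.2 kb has the widest gap, with 2160 bp in adults and 3375 bp in litters on average.

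In all, 16 member regions differed between stages, 8 in each direction. Of the 309 regions, 127 had enough calls to be tested between the 12 adult and the 12 E18.5 libraries (Fisher's exact test, two-sided, Benjamini-Hochberg adjusted over all 170267 testable regions of the genome, threshold 0.05). Of these 127, 8 were called more often in the adult, 6.3%, against 1.55% of all testable regions: 4 at Tbx15, 2 at Eya1, 1 at Six4 and 1 at Eya4. The 8 called more often at E18.5 were also 6.3%, against 4.55% of all: 4 at Eya4, 2 at Eya1 and 2 at Tbx15. Six2, Six5 and Eya3 had 0 of 25, 0 of 11 and 0 of 15 tested regions past the threshold. At unadjusted p under 0.05, 20 member regions leaned to the adult (5.31% of all testable regions did) and 23 to E18.5 (14.3% of all). The 12 libraries of a stage come from 3 animals or 3 litters, so these p-values are too small. Animal by animal, all 16 regions had more calling muscles in each member of one group than in any of the other. For most of the 16 the numbers of calling libraries alone fix this separation, so it is no independent support. That separation held for 26 of the 309 regions toward the adult and 21 toward E18.5 (8.41% and 6.8%), against 3.19% and 5.54% of all kept regions.
The counts depended on which peaks of each list were used and on how a call is defined. With the 100000 widest peaks of each list, 9 regions passed toward the adult and 11 toward E18.5 (3.64% and 9.02% of all testable regions). Cutting each list at random to the length of the shortest left 1 adult and 3 E18.5 regions past the threshold (0.209% and 0.531% of all), namely Tbx15 at +61.1 kb for the adult and Eya4 at +92.5 and +220.0 kb and Tbx15 at -36.7 kb for E18.5. Asking a peak to cover 50% of the region left 3 and 6, while the shares of all testable regions under that rule rose to 3.17% and 13.3%. Leaving out 1 animal or litter at a time left 4 to 7 and 5 to 9 (4 toward the adult without litter 1, 5 without adult 1 or litter 2; 5 toward E18.5 without adult 1 or litter 1), with 0.56% to 0.84% and 1.13% to 3.43% of all testable regions. Through all 6 of these omissions 8 regions passed, namely that of Six4, Eya4 at +92.5, +189.6 and +220.0 kb, and Tbx15 at -46.8, -36.7, +56.4 and +61.1 kb, and each of the 4 Eya1 regions was lost in at least 2. The Eya4 regions at -10.7 and +109.0 kb and the Tbx15 region at +139.6 kb were lost in 3 or 4, and Tbx15 at +53.9 kb without adult 1 (exact adjusted p = 0.0533).

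**Figure D2:**
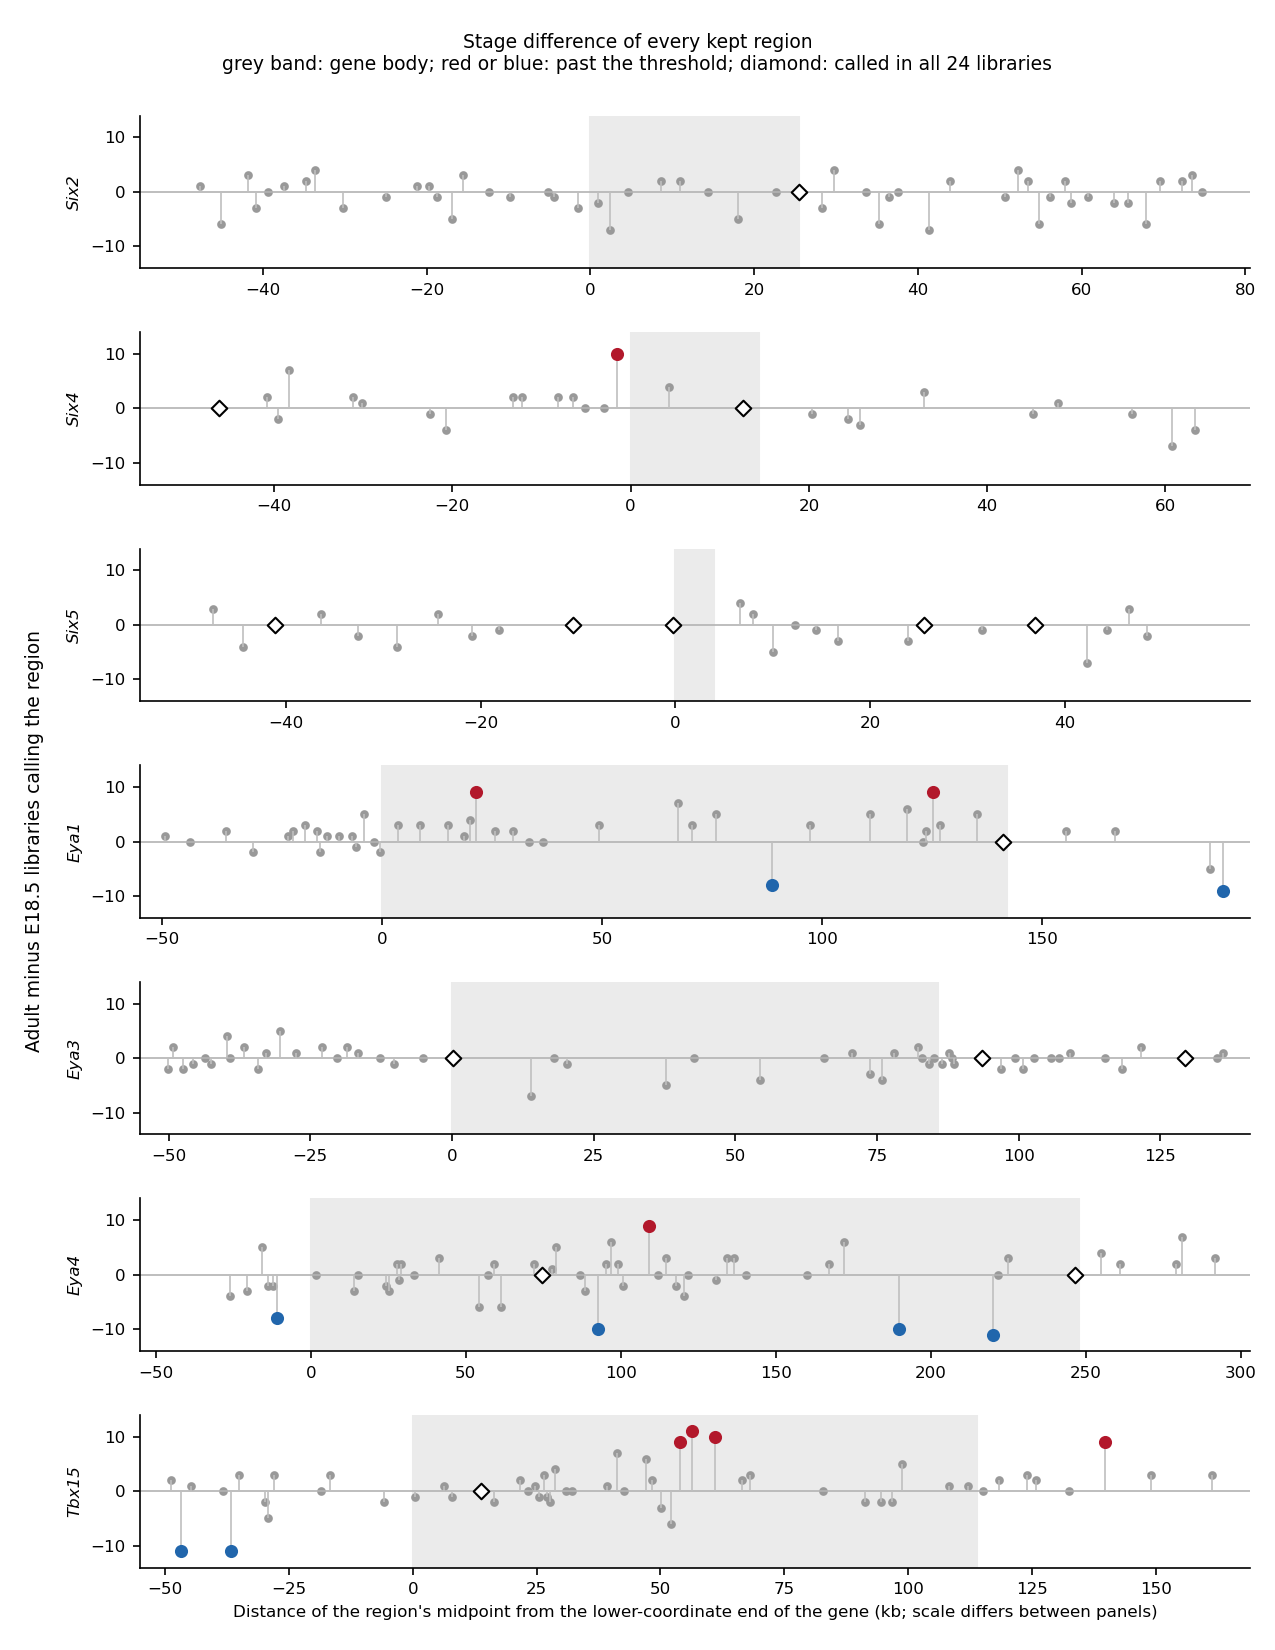
Adult minus E18.5 libraries (y axis, of 12 each) calling each of the 309 regions, against the midpoint's distance from the lower-coordinate end of the gene (x axis, kb), with the gene body as a grey band. Red and blue points are the 8 regions past the threshold toward the adult and the 8 toward E18.5, diamonds the 15 regions called in all 24 libraries; of the red points 4 are at Tbx15, and of the blue points 4 are at Eya4.

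Among the sine oculis genes, which bind DNA themselves, the one region past the threshold lay beside Six4. It is on chr12:73097241-73099003, 606 bp past the end of Six4 that has no start site. Adults 1, 2 and 3 had it in 4, 4 and 3 of their 4 muscles, and the litters in 1, 0 and 0. That is 11 of 12 adult and 1 of 12 E18.5 libraries (exact adjusted p = 0.00534). A farther Six4 region at -38.3 kb was called in 7 adult and 0 E18.5 libraries and did not pass (exact adjusted p = 0.0566). The widest differences at Six2 went the other way without passing: its region at +2.4 kb, inside the gene, was called in 4 adult and 11 E18.5 libraries (exact adjusted p = 0.1). At Six5, the region at +42.4 kb was called in 5 and 12 (exact adjusted p = 0.0566).

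Eya1, a co-activator of sine oculis proteins, had regions of both kinds. Its region at +21.3 kb, inside the gene (chr1:14189369-14191155), was called in 4, 3 and 2 muscles of the 3 adults and in 0 of every litter (9 against 0 libraries, exact adjusted p = 0.0113). The second, at +125.3 kb inside the gene (chr1:14293541-14294890), was called in 3, 4 and 3 muscles of the adults and in 0, 1 and 0 of the litters (exact adjusted p = 0.0168). Toward E18.5, the region at +88.5 kb inside the gene (chr1:14257145-14257704) was called in 0 adult libraries and in 4, 3 and 1 muscles of the litters (exact adjusted p = 0.0266). The one at +191.2 kb, in the flank (chr1:14359462-14360747), was called in 0 adult libraries and in 4, 2 and 3 muscles of the litters (exact adjusted p = 0.0113). At each of the 4, 8 to 10 libraries of one stage called the region against 0 or 1 of the other.

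Eya4, another co-activator of the eyes absent family, held more E18.5-higher regions than any other member. The clearest was at +220.0 kb inside the gene (chr10:23322331-23323580), called in all 12 E18.5 libraries and in 1 adult library (exact adjusted p = 0.00113). The region at +189.6 kb (chr10:23292066-23293132) was called in 4, 4 and 2 muscles of the litters and in no adult library (exact adjusted p = 0.00415). The region at +92.5 kb (chr10:23194771-23196223) was called in 4, 3 and 4 muscles of the litters and in 0, 1 and 0 of the adults (exact adjusted p = 0.00534). Outside the gene, at -10.7 kb (chr10:23091289-23093180), the litters had 4, 4 and 3 and the adults 1, 2 and 0 (exact adjusted p = 0.0453). A single Eya4 region went the other way, at +109.0 kb inside the gene (chr10:23211146-23212824), with 4, 3 and 4 in the adults and 0, 1 and 1 in the litters (exact adjusted p = 0.0168). Eya3, which is expressed in many tissues, had its widest gap at +13.9 kb inside the gene, with 3 adult and 10 E18.5 libraries (exact adjusted p = 0.108).

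Tbx15 had a run of 3 adult-higher regions in about the middle of the gene. They lie at +53.9 kb (chr3:99293593-99294897), +56.4 kb (chr3:99296193-99297359) and +61.1 kb (chr3:99300731-99302077). The first was called in all 12 adult libraries and in 1 muscle of each litter (exact adjusted p = 0.0113). The second was called in all 12 adult libraries and in 1 E18.5 library, the vastus intermedius of litter 1 (exact adjusted p = 0.00113). The third was called in 3, 3 and 4 muscles of the adults and in no E18.5 library (exact adjusted p = 0.00415). Just before the run, at +52.2 kb (chr3:99291833-99293223), a region was called in 6 adult libraries and in all 12 E18.5 libraries and did not pass (exact adjusted p = 0.108). Another adult-higher region lay in the flank at +139.6 kb (chr3:99379483-99380510), with 3, 4 and 3 muscles of the adults and 0, 0 and 1 of the litters (exact adjusted p = 0.0168). The 2 E18.5-higher regions lay on the other side, inside the body of the neighbouring gene Wars2. The one at -46.8 kb (chr3:99192846-99194251) was called in 0 adult libraries and in 4, 4 and 3 muscles of the litters (exact adjusted p = 0.00113). The one at -36.7 kb (chr3:99203011-99204337) was called in 1 adult library and in all 12 E18.5 libraries (exact adjusted p = 0.00113). Which gene a region acts on is not measured here.

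The 16 regions lay mostly away from gene ends, as most member regions did. Of them 10 lay in a member's body and 1, that of Six4, within 1 kb of a gene end, against 34 of all 309 member regions and 11 of the 15 called in all 24 libraries. Their width was 560 to 1892 bp (median 1337 bp), against 1159 to 4314 bp (median 2675 bp) for the 15. At the 8 adult-higher regions, calls were made in 24 of 24 gastrocnemius, 23 of 24 vastus lateralis, 20 of 24 soleus and 18 of 24 vastus intermedius libraries of the adult. Fast-biased muscles thus gave 47 of 48 possible calls (97.9%) and slow-biased ones 38 of 48 (79.2%). Over all adult-higher regions of the genome the shares were 91.5% and 80.8%, so that a gap in the same direction was general. At the 8 E18.5-higher regions, the E18.5 muscles gave 20 to 22 of 24 calls each, with 42 of 48 (87.5%) in slow-biased and 42 of 48 in fast-biased muscles, against 86.7% and 89.1% over all E18.5-higher regions. The adult libraries gave only 6 calls there. Soleus of adult 2, whose list was the longest of the slow-biased adult lists (211875 peaks), made 4 of these 6. That library called 13.2% of the E18.5-higher regions of the whole genome, inside the 5.98% to 18.2% of the 12 adult libraries.

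**Figure D3:**
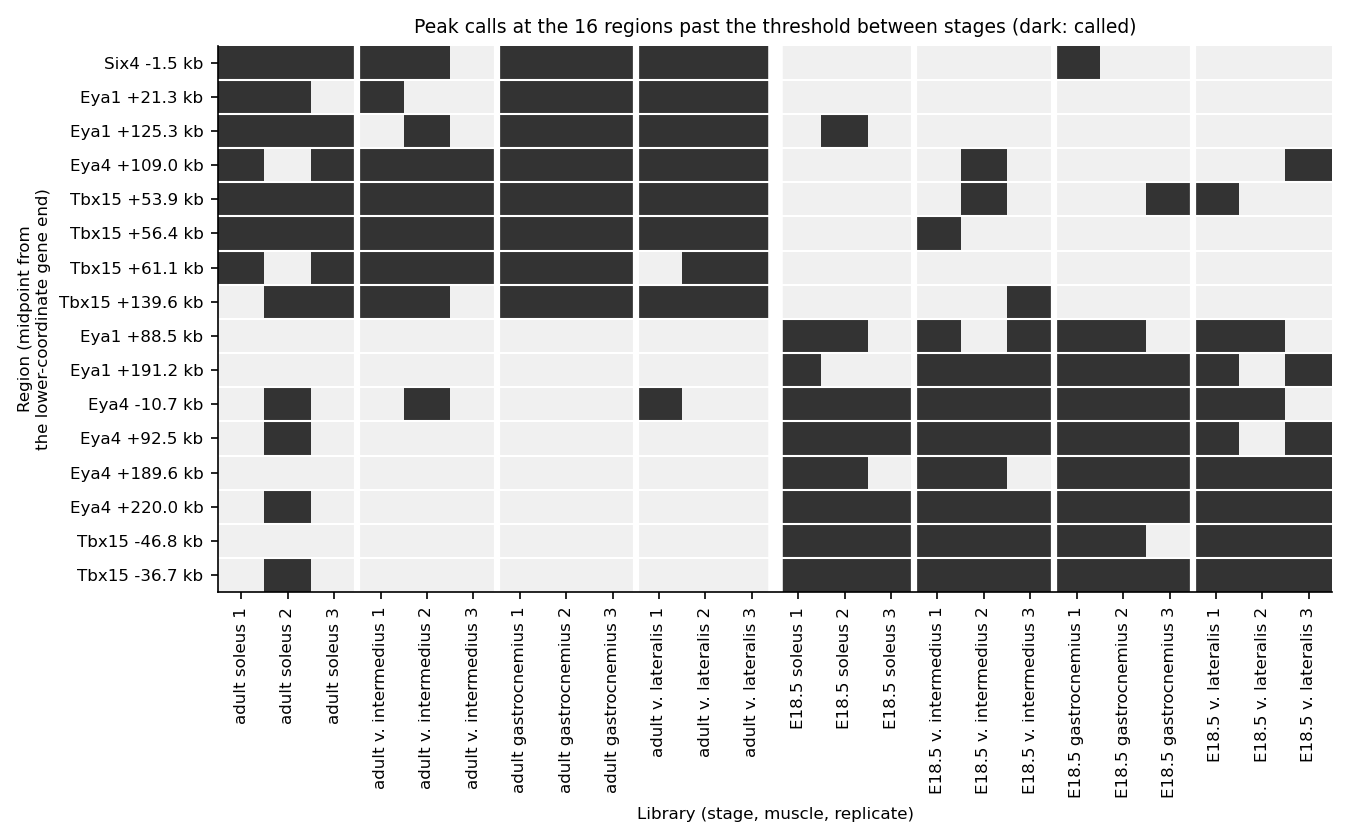
Peak calls (dark) at the 16 regions past the threshold between stages (rows, gene and midpoint position in kb) in each of the 24 libraries (columns, by stage, muscle and replicate). The upper 8 rows are dark in 9 to 12 adult and 0 to 3 E18.5 libraries, and the lower 8 rows in 0 to 3 adult and 8 to 12 E18.5 libraries.

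Counted over the whole locus and over the 4 muscles together, Eya1 and Tbx15 had more called regions in the adult. Summed over 4 muscles, the 3 adults had 54, 59 and 44 called regions at Eya1 and the 3 litters 36, 30 and 19. The lowest adult lay above the highest litter, and the group means per library were 13.08 ± 1.91 and 7.08 ± 2.16 (SD, n = 3 each). At Tbx15 the adults had 72, 74 and 71 and the litters 64, 55 and 49, again without overlap (18.08 ± 0.38 and 14 ± 1.89). Not every muscle took part: the Tbx15 means in the vastus intermedius were 16.3 in the adult and 16.7 at E18.5. They were 16 and 11.3 in soleus, 18 and 14 in gastrocnemius and 22 and 14 in vastus lateralis. At Eya1 the adult mean was higher in each muscle, least so in the vastus intermedius (9.33 ± 3.06 and 7.33 ± 1.53, SD, n = 3 each). In the Six5 window the adults had 50, 49 and 46 and the litters 52, 61 and 52, all above the adults (12.08 ± 0.52 and 13.75 ± 1.30). Of its 25 regions only 1 overlapped the gene body, where the difference was 0. The window also holds Sympk, Rsph6a, Dmwd, Dmpk, Bhmg1, Fbxo46 and Qpctl. With 3 against 3, an exact permutation test cannot go below 0.1, so no locus could pass. Non-overlap toward the adult was seen in 2 of the 7 members (28.6%) and in 4.85% of all loci. Toward E18.5 it was seen in 1 of the 7 (14.3%), near the 15.4% of all loci. Across all loci the median difference was -0.92 regions, and 29.4% were higher in the adult.
The other 4 loci overlapped between stages. Six2 had 13.75 ± 1.98 in adults and 16.67 ± 1.46 in litters, Six4 10 ± 0.66 and 9 ± 1.15, Eya3 15.33 ± 1.01 and 16.42 ± 2.84, and Eya4 14.75 ± 1.64 and 15.08 ± 3.69. Per 100000 peaks, Eya1 (7.76 ± 0.33 and 4.26 ± 1.01) and Tbx15 (11.14 ± 0.78 and 8.40 ± 1.01) still did not overlap, Six4 joined them (6.20 ± 0.31 and 5.38 ± 0.51), Six2 did not overlap toward E18.5 (8.17 ± 0.47 and 10 ± 0.56) and Six5 overlapped (it also overlapped without adult 2, with lists read only to peak 50000, over all merged regions, with flanks of 10 kb and in the gene body alone). Of all loci, 7.2% and 27.1% did not overlap on that scale toward the adult and toward E18.5. The Tbx15 groups overlapped when each list was cut at random to the shortest (difference 2.42), when a peak had to cover 50% of a region (0.17) and when each list was read only to its peak 50000 (1.5), and those of Eya1 overlapped under none of the alternatives run. The summed muscle fibre marker regions were higher in the adult as well (71 to 112 against 20 to 54), and their part in the result was not tested.

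**Figure D4:**
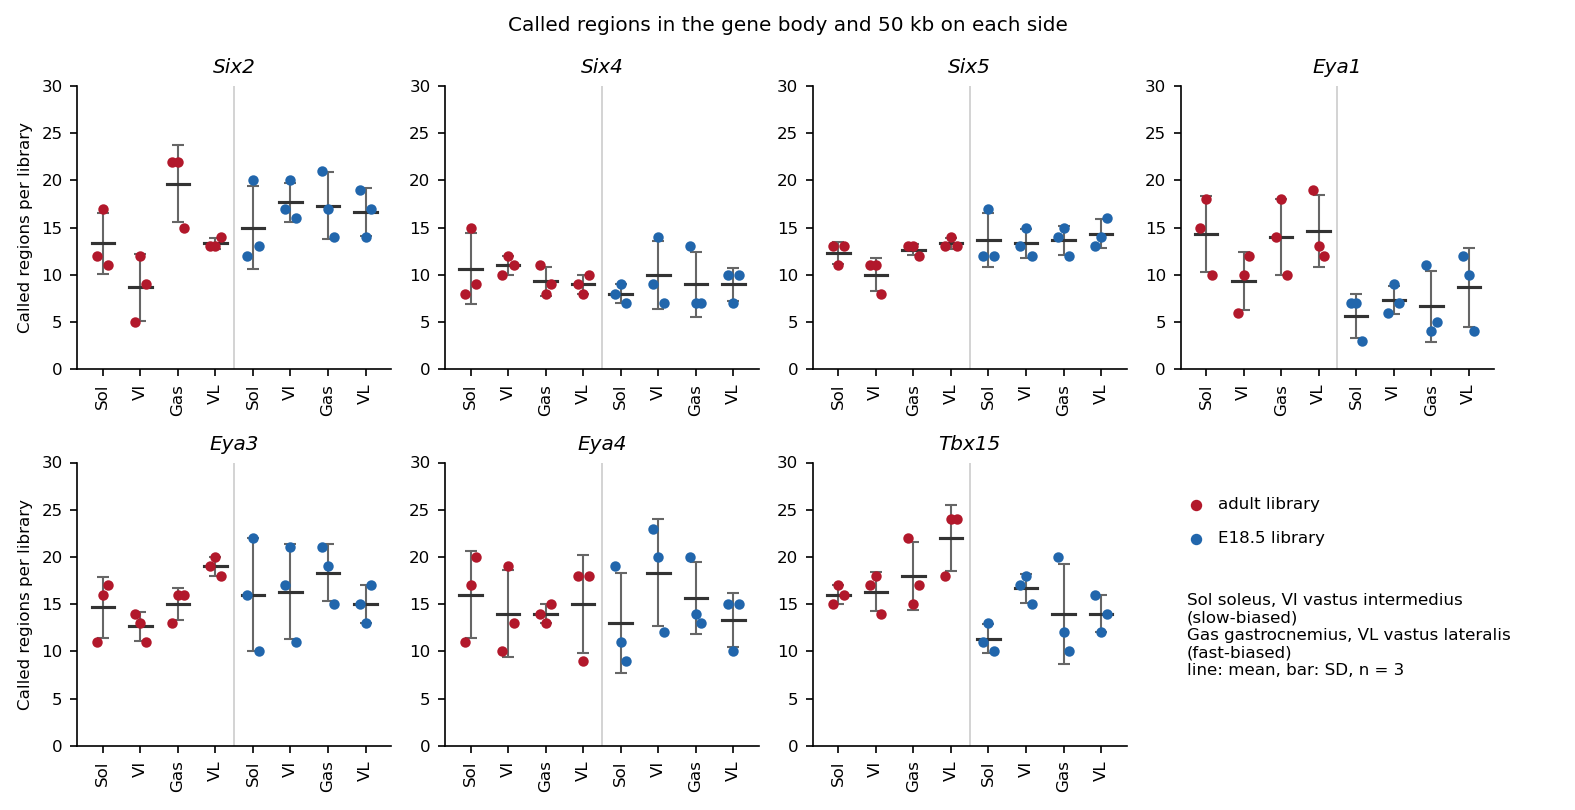
Called regions per library (y axis) in the gene body and 50 kb on each side of the 7 genes, by stage and muscle (x axis), with 3 libraries per group as points, means as lines and SDs as bars. Most adult points lie above most E18.5 points at Eya1, the lowest adult point being 6 in the vastus intermedius of adult 1. Adult vastus lateralis has the highest mean at Tbx15, with points at 18 to 24.

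Between slow-biased and fast-biased muscles of the adult, no member locus passed after adjustment (exact permutation of 6 against 6 libraries, two-sided, Benjamini-Hochberg over 33415 loci). Nor did any other locus of the genome (0% in either direction). Even a locus at the smallest possible exact permutation p (0.00216) had an adjusted p of 0.207. The 6 slow-biased libraries had 5 to 17 called regions at Six2 (median 11.5) and the 6 fast-biased ones 13 to 22 (median 14.5). The ranges overlapped, with the vastus intermedius at 8.67 ± 3.51 and the gastrocnemius at 19.7 ± 4.04 (SD, n = 3) at the extremes (exact permutation p = 0.0584, adjusted p = 0.376). Tbx15 had 14 to 18 (median 16.5) on the slow side and 15 to 24 (median 20) on the fast side, with 22 ± 3.46 in the vastus lateralis (exact p = 0.0758, adjusted p = 0.407). Eya3 had 11 to 17 (median 13.5) and 13 to 20 (median 17; exact p = 0.0606, adjusted p = 0.377). Six5 had 8 to 13 (median 11) and 12 to 14 (median 13), the one member with an unadjusted exact p under 0.05 (0.0476, adjusted p = 0.353), as 13.7% of all loci had toward the fast-biased muscles and 0.209% toward the slow-biased. Eya1 had 6 to 18 and 10 to 19 (exact p = 0.327), Six4 8 to 15 and 8 to 11 (exact p = 0.227), and Eya4 10 to 20 and 9 to 18 (exact p = 0.879).
The slow-biased adult lists were shorter, with 153684 ± 33728 peaks against 179502 ± 25869 (SD, n = 6 each), and 79.6% of all loci had fewer called regions in slow-biased libraries, or 46.2% once counted per 100000 peaks. On that scale Six5 was level (7.47 and 7.34, exact p = 0.874), Six2 still leaned to the fast-biased muscles (7 and 9.34, exact p = 0.0844) and Six4 to the slow-biased (7.18 and 5.22, exact p = 0.0346, adjusted p = 0.848; 2.92% of all loci were below 0.05 in that direction). At E18.5 the lists were of like length (166792 and 168920 peaks on average) and the member means lay within 1.17 regions of each other, from Eya4 at 15.7 in the slow-biased class and 14.5 in the fast-biased one to Six4 and Tbx15 with equal means (exact p = 0.565 to 1, n = 6 each). No member locus had an unadjusted p under 0.05 there (0.257% of all loci had one toward the slow-biased and 0.787% toward the fast-biased muscles). Permuting the labels within animals, which share all 4 muscles, also left 0 of the 7 loci past the adjusted threshold at either stage (0% of all loci).

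Single regions did not separate the muscle classes after adjustment either. Of 43 testable member regions in the adult, 0 passed in either direction (0% of all 48133), and at E18.5 0 of 26 passed (0% of 49905). With 6 against 6 libraries the smallest possible exact p was 0.00216 before this adjustment. The absence of passing regions thus does not show that the classes are alike. At unadjusted p under 0.05 there were 2 in the adult, both toward the slow-biased muscles (0.472% of all testable regions), and 0 toward the fast-biased (2.88% of all); at E18.5 there were 0 in either direction (0.234% and 0.591% of all). The first is inside Eya1 at +119.3 kb (chr1:14287787-14288736), called in 3 of 3 soleus, 3 of 3 vastus intermedius, 0 of 3 gastrocnemius and 1 of 3 vastus lateralis libraries (exact p = 0.0152, adjusted p = 0.452). The second lies in the Eya4 flank at +281.2 kb (chr10:23383437-23384871), and the same libraries called it. At E18.5 they were called in 1 and in 0 of 12 libraries, so both were mostly adult calls.
In the other direction, 6 regions were called in at least 4 more fast-biased than slow-biased adult libraries, without an unadjusted p under 0.05. The share of all kept regions with such a gap was not counted. The fast-biased adult lists were longer, and 79.6% of all loci had fewer called regions in the slow-biased adult libraries. Inside Eya4, the region at +79.1 kb was called in all 6 fast-biased and 2 slow-biased libraries, and that at +97.0 kb in 5 and 1. Inside Tbx15, the region at +52.2 kb, next to the adult-higher run, was called in 5 fast-biased and 1 slow-biased adult libraries. At Six2 the region at +2.4 kb was called in 4 and 0, and that at -45.1 kb, inside the neighbouring gene Six3, in 5 and 1. The Tbx15 region at +52.2 kb and the Six2 region at -45.1 kb were called in all 12 E18.5 libraries. In the adult they were called in 5 of 6 fast-biased and 1 of 6 slow-biased libraries each (exact p = 0.0801).

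**Figure D5:**
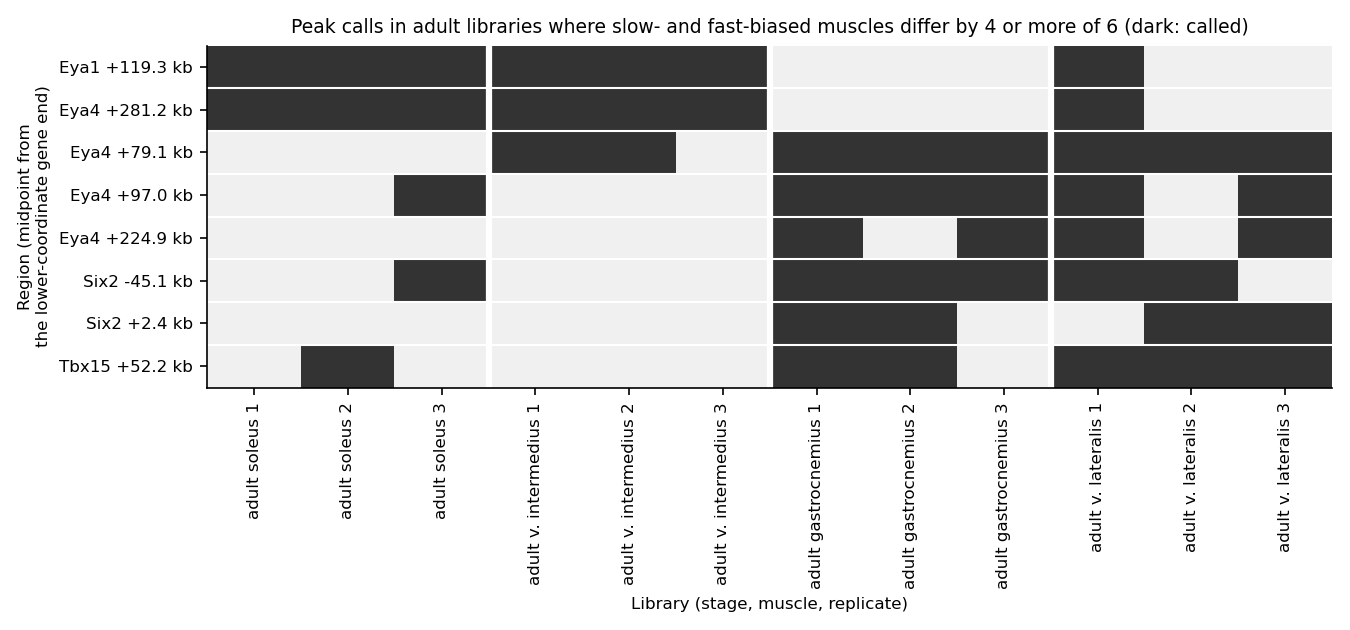
Peak calls (dark) in the 12 adult libraries (columns, 3 per muscle) at the 8 member regions where slow-biased and fast-biased muscles differ by 4 or more of 6 libraries (rows, gene and midpoint position in kb). The top 2 rows are dark in all 6 slow-biased libraries and in 1 fast-biased library, and the lower 6 in 4 to 6 fast-biased and 0 to 2 slow-biased libraries.

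Calls restricted to 1 muscle were few. Among member regions called at least once in the adult (278), 1 was called in all 3 libraries of the vastus intermedius and in no other adult library (Six4 at -5.1 kb; 0.0221% of all regions), and 1 in those of the gastrocnemius (Six2 at -15.5 kb; 0.0684% of all). Soleus and vastus lateralis had 0 such regions (0.0902% and 0.117% of all). At E18.5, 1 region inside Eya4, at +130.7 kb, was called in the vastus intermedius alone (0.0391% of all), and 0 in soleus (0.0228%), gastrocnemius (0.065%) or vastus lateralis (0.0427%). These regions were picked out after their calls were seen.

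In the wider network, the windows of the fast myosin genes had more called regions in every adult than in every litter, as did those of Mef2c and Sox6. Over 10 partner and network genes (Dach1, Dach2, Sobp, Pax3, Pax7, Myod1, Myog, Mef2c, Tbx18 and Sox6), 8 of 194 tested regions passed toward the adult and 6 toward E18.5 (1.55% and 4.55% of all testable regions did). At locus level, Mef2c, a partner of the myogenic factors, had 15.67 ± 2.84 called regions in adults and 8.83 ± 2.77 in litters, and Sox6, a repressor of slow-fibre genes, 38.58 ± 1.76 and 24.25 ± 5.32, both without overlap of animals and litters. Dach2, a co-factor of sine oculis proteins, was the one locus without overlap toward E18.5 (0.92 ± 0.14 and 1.58 ± 0.38), as 15.4% of all loci were. Its window held only 5 regions. Over 14 fast-fibre genes that sine oculis proteins are known to act on, 21 of 189 tested regions passed toward the adult and 8 toward E18.5, and 5 loci did not overlap toward the adult (4.85% of all loci). These were Pfkm, Myl1 and the fast myosin genes Myh1, Myh2 and Myh4, whose windows overlap, so that their regions are partly the same. Myh4, the fastest of these myosins, had 14.25 ± 1.25 called regions in adults and 2.75 ± 0.75 in litters. None of the 24 loci passed the adjusted test between adult slow-biased and fast-biased muscles, and no locus of the genome did. At unadjusted p under 0.05, 2 of the 10 and 6 of the 14 loci had more called regions in the fast-biased muscles and 0 the reverse (13.7% and 0.209% of all loci). Actn3, an actinin of fast fibres, had 14.17 ± 2.23 in soleus and vastus intermedius and 21.17 ± 2.64 in the fast-biased muscles (exact p = 0.00216, the smallest possible, adjusted p = 0.207). These counts were not scaled to list length, and the slow-biased adult lists were shorter.

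Across the 24 libraries, the loci whose called regions per 100000 peaks were most like a member's, among 18584 protein-coding genes, were Lpp (Pearson r = 0.842) and Osbpl9 (0.831) for Tbx15, Tnnt3 (0.842) and Rnf225 (0.839) for Six5, Ina (0.8) and Med13l (0.783) for Eya3, and Cd40 (0.785) and Fam228b (0.735) for Six2. For Six4 they were Rnf168 (0.764) and Cd59b (0.753), for Eya1 Usp13 (0.736) and Dnah3 (0.733), and for Eya4 Rnf144a (0.738) and Zfp703 (0.694). Tnnt3 is the troponin T of fast fibres. These values describe libraries that share stage, animal and list length, and no test was made of them.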

How the data were processed

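ATAC-seq peaks were analysed from 24 libraries, 3 for each of 4 muscles at 2 stages. Per the submitters' processing notes, the authors' tools were FastQC 0.11.5, MACS2 2.1.1, Bowtie2 2.4.4, Trimmomatic 0.39.0, bedtools 2.25.0, SAMtools 1.14.0, Picard and the build mm10. Thresholds, read depth and any transposase shift: not given in the sources used here. The deposited lists hold chromosome, start and end, 1 list per library, with no score, fold or count. No 2 lists were identical.

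Peaks were merged where they overlapped or touched, and regions called (at least 1 bp) in at least 2 libraries were kept. Gene positions came from RefSeq (GRCm38.p6), without strand or exons. Regions were compared by Fisher's exact test and loci with at least 3 regions by exact permutation (smallest p 0.00216), Benjamini-Hochberg adjusted genome-wide at 0.05, with Python 3.11.15, numpy 2.4.6, pandas 2.3.3 and scipy 1.17.1. The code was tested on simulated data. Members, gene lists and tests were chosen with earlier results of these data known. The regions named were those past a threshold, those at the gene's own start, and, per member, up to 2 with the largest difference in each direction between stages and between adult muscle classes; for each member, the 2 genes with the most similar counts were named too. Those restricted to 1 muscle were named after their values were seen.

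The labels give the 4 muscles of a number as 1 animal or litter, so numbers pair muscles within a stage; deviations of same-numbered libraries correlated at a mean r of 0.0548 in the adult and 0.153 at E18.5. Adult and litter numbers do not pair. By the names of the deposited lists, replicate 1 differed from 2 and 3 in date (of a step not given) at each stage, and no date held both stages, so date and stage cannot be told apart.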

Additional observations from a re-analysis of the deposited data

Results flagged for a closer look

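At the Six4 locus, 1 of the 6 slow-biased E18.5 libraries, the vastus intermedius of litter 2, had 14 called regions where the other 5 had 7 to 9. It lay farther from the rest than expected for 6 values by Dixon's criterion; 28 groups of 6 were checked, and about 1 in 20 is picked out by chance.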

How the results depend on the processing

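Of the stage counts, 8 regions toward the adult and 8 toward E18.5 became 1 and 3 with the same number of peaks drawn from each list, 3 and 6 when a peak had to cover 50% of the region, 7 and 5 with flanks of 10 kb, 6 and 4 in the gene body alone, and 13 and 10 with the first 50000 peaks of each list in file order, a setting chosen after seeing the data (under it 12.2% and 24.2% of all testable regions passed, against 1.55% and 4.55%; peaks become narrower down each list, and what the order means is not documented). With the 100000 widest peaks of each list the counts were 9 and 11 (3.64% and 9.02% of all testable regions). Fewer peaks enter by construction when lists are cut at random to the same length, and fewer regions with the smaller windows. For the 50% rule, the widest peaks and the first 50000 peaks the cause was not tested. Leaving out 1 animal or litter gave 4 to 7 toward the adult (4 without litter 1, 5 without adult 1, 5 without litter 2) and 5 to 9 toward E18.5 (5 without adult 1, 5 without litter 1). The regions Eya4 at +220.0 kb and Tbx15 at -36.7 kb passed in all 12 alternatives that held them, and all 16 regions kept their direction throughout.

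Loci without overlap, 2 toward the adult and 1 toward E18.5, became 1 and 2 with the same number of peaks and 1 and 3 with the 50% rule. Toward E18.5 the count was 2 with the 100000 widest peaks, 0 over all merged regions, 0 in the gene body alone and 3 without litter 3. Leaving out animals or litters gave 2 to 3 toward the adult and 1 to 3 toward E18.5 (without adult 2 the 1 locus was Six2 in place of Six5). The Six5 difference turned from -1.67 to 0.0833 with flanks of 10 kb. That of Eya3 turned from -1.08 to 0.25 with the same number of peaks and to 0.83, without overlap, with the first 50000 peaks, and that of Eya4 from -0.33 to 1.75 over all merged regions and 1.33 without litter 1.

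No member region or locus passed between slow-biased and fast-biased muscles under any alternative, the replicate block by animal or litter included (0 calls in each). Nor did any region of the whole genome. Before adjustment, the smallest possible exact p was 0.00216 for 6 against 6 libraries and 0.00926 within animals. The repeated 0 counts therefore do not show that the muscle classes are alike. Directions of differences that passed no test turned as follows. In the adult (slow minus fast), the same number of peaks gave Six5 0.5, Eya1 0.33 and Tbx15 0.67, counts per 100000 peaks gave Six5 0.12, flanks of 10 kb gave Six4 -0.17 and Eya4 -1.17, the gene body gave Eya4 -1.5, the 50% rule gave Eya4 -1.83, and the first 50000 peaks gave Six2 0.5, Eya3 0.83 and Eya4 -1.5. Leaving out an adult, Eya1 ranged from -3.75 to 0.5 and Eya4 from -3.25 to 3.5. At E18.5, the 50% rule gave Eya1 0.5 and Eya3 0.33, the first 50000 peaks gave Eya1 0.17, Eya3 1.17 and Eya4 -0.67, the gene body gave Eya3 0.33 and the widest peaks Eya3 0.5. Leaving out a litter, Six2 ranged from -2.5 to 1.75, Six5 from -2 to 0.25, Eya1 from -2.25 to 0.25, Eya3 from -3.75 to 1.25 and Eya4 from -0.5 to 3.25.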
